A study of Mus musculus with 8 samples.

Results

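Respiratory complex I, the NADH dehydrogenase of the mitochondrial inner membrane, was described here through the array probes of its nuclear-encoded subunits. The members are all probes whose platform gene symbol is Ndufa, Ndufb, Ndufc, Ndufs or Ndufv followed by digits, or Ndufab1, and whose detection p-value, which ranks a probe's signal among negative control probes, was under 0.05 on at least 4 of the 8 arrays. They number 42 probes of 32 genes, all detected on 8 arrays. The 2 probes left out were those of Ndufs1, detected on 0 arrays, and Ndufab1, detected on 1. The 42 were chosen out of 14190 probes detected by the same rule and 25697 probes on the array. RNA came from the hypothalamus of male mice on a C57BL/6 background, killed at 13 weeks of age. In 4 of the mice Bgn, which encodes the matrix proteoglycan biglycan, was knocked out (Bgn_KO), and 4 were wild type (WT). All were fed the same rodent diet, and the labels number 1 array for each mouse of a group. The p-values measure the spread between these arrays. The sources used here state neither which part of Bgn was disrupted nor whether the wild types were littermates.

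Complex I takes electrons from NADH, passes them along iron-sulphur clusters to ubiquinone and pumps protons across the inner membrane. Its core subunits carry out that chemistry, while many accessory subunits surround and stabilise them. The N module oxidises NADH, the Q module reduces ubiquinone, and the proximal and distal parts of the membrane arm hold the proton channels, whose core subunits are encoded in mitochondrial DNA. Neurons depend heavily on this enzyme, and its inherited defects in humans often show as brain disease.

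Pairs of arrays had correlations (Pearson's r across tested probes) of 0.976 to 0.990, and between 53.8% and 56.4% of probes per array were detected. With 4 arrays a group, their number limits precision. The normalized log2 signal of Bgn was between 8.79 and 9.01 on the Bgn_KO arrays. It was 8.86 on the array labelled WT replicate 1 and between 9.53 and 10.44 on the other WT arrays. The log2 difference was -0.81 (SE 0.29, limma adjusted p = 0.390). By the signal of this 1 probe, the array labelled WT replicate 1 goes against its label. Of 13 hypothalamic marker genes with a probe, 11 were detected by the rule, the peptides Avp, Oxt, Hcrt, Pmch and Pomc among them, and the transcription factors Otp and Sim1 were not. WT replicate 4 stood apart by skeletal muscle transcripts: the mean of 6 detected muscle genes lay 4.87 above its average over arrays there on the log2 scale, and between -0.96 and -0.40 on the other 7 arrays. On Bgn_KO replicate 4 the mean of 6 cortical and hippocampal neuron genes lay 1.78 above its average, against -0.49 to -0.01 elsewhere. The mean of 2 detected pituitary genes, both dim, lay 2.70 above its average on Bgn_KO replicate 1 and 2.48 on WT replicate 2. Elsewhere it lay between -1.29 and -0.13.

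Promoter sequences are shown for the genes on which the comparisons below turn: Ndufb11, the member with the largest difference, Ndufb5 and Ndufa5, with probes whose groups did not overlap, and Tmem126b, the assembly factor that passed the test. Each is the run of 250 bases before the start of the gene, 5′ to 3′ on the gene's strand, from the RefSeq annotation of GRCm38.p6 (for Ndufa5 the outermost of 2 annotated starts). Capitals mark letters that match 1 of 3 motifs described after them.

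Ndufb11 (chrX:20617620-20617869, minus strand): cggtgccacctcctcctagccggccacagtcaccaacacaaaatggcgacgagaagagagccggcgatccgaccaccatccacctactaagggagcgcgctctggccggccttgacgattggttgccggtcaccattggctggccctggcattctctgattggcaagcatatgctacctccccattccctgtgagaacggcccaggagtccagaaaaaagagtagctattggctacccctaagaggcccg

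Ndufb5 (chr3:32736813-32737062, plus strand): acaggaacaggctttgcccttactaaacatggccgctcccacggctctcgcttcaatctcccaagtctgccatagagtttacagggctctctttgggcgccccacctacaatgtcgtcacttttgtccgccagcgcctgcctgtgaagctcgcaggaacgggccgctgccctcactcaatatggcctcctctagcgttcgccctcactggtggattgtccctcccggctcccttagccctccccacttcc

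Ndufa5 (chr6:24527691-24527940, minus strand): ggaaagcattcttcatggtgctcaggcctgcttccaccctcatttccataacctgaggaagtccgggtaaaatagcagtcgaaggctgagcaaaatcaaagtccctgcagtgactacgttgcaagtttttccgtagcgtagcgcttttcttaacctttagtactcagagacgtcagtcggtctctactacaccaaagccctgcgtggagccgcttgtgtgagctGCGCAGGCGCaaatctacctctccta

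Tmem126b (chr7:90475996-90476245, minus strand): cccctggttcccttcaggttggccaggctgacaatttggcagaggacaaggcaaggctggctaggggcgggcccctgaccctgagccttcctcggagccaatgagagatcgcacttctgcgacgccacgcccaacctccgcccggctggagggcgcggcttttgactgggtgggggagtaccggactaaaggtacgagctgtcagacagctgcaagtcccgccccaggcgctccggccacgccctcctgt

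The table of promoters, which spans 250 bases before to 50 bases after each start, held 30 of the 32 member genes, and Ndufa2 and Ndufb9 had no entry. It was searched on both strands for the letters of 3 factors known to act on genes of respiratory subunits: GCGCA, any base and GCGC in that order for NRF1, CCGGAAG for ETS factors such as GABPA, and AAGATGGC for YY1. The YY1 letters were in 7 of the 30 members (23.3%) and in 3.19% of all 27025 genes in the table. The NRF1 letters were in 5 (16.7%, against 5.19% of all genes) and the ETS letters in 4 (13.3%, against 9.93%). At least 1 of the 3 was in 15 of the 30 members, against 16.4% of all genes. The ETS letters end as the YY1 letters begin, so that both can match the same bases, but no member held both. A match describes letters, not a bound site.

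All 7 matches of the YY1 letters lay on the gene's own strand and after the start, with first bases between 23 and 39 counted from 1 at the start. Among matches on either strand in all promoters of that set, 40.2% lay after the start, a part that is 16.7% of the window. The YY1 letters hold ATG, the letters of a start codon. Whether the matches cover the start of translation was not tested. The member matches are set under each other here because of that shared position, with the match in capitals and up to 10 bases on each side. The assembly factor gene Tmem126b, which is not a member, held the same letters from base 18.

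Ndufs7 (chr10:80249463-80249490, plus strand): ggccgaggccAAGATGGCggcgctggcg

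Ndufs4 (chr13:114388045-114388069, minus strand): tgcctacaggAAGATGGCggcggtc

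Ndufs6 (chr13:73328433-73328459, minus strand): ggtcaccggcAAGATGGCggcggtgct

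Ndufa9 (chr6:126849098-126849125, minus strand): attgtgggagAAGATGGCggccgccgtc

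Ndufc1 (chr3:51408916-51408943, minus strand): cctgcggaacAAGATGGCgccgtccgta

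Ndufa3 (chr7:3617385-3617412, plus strand): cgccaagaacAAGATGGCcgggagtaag

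Ndufb8 (chr19:44555393-44555414, minus strand): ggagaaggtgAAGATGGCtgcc

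Tmem126b (chr7:90475961-90475988, minus strand): gtgaggcgctAAGATGGCggcgtcccag

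The NRF1 letters lay mostly just before the start. Ndufb4 held 3 matches, at bases -191, -79 and -22, where -1 is the last base before the start. The single matches of the other 4 genes began at -30 in Ndufa8, -26 in Ndufa5, -16 in Ndufs6 and 24 in Ndufa6.

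Ndufa5 (chr6:24527697-24527726, minus strand): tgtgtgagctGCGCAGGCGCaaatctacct

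Ndufa6 (chr15:82354249-82354278, minus strand): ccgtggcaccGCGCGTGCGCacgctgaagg

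Ndufa8 (chr2:36049349-36049378, minus strand): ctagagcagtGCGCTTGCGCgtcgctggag

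Ndufs6 (chr13:73328479-73328508, minus strand): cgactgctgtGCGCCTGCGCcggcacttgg

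None of the 42 complex I probes passed the test between Bgn_KO and WT. The call rate over all tested probes was 0.507% (72 of 14190, limma with Benjamini-Hochberg adjustment at 0.05), of which 0.226% were higher and 0.282% lower in Bgn_KO, so that a count of 0 among 42 probes is near the background. The smallest adjusted p among members was 0.139. An unadjusted p under 0.05 was met by 6 members, 1 higher and 5 lower in Bgn_KO, beside 10.2% of all tested probes (5.21% higher and 4.94% lower). Differences, given throughout as Bgn_KO minus WT on the log2 scale, ran from -0.35 to 0.55, and 28 of the 42 were within 0.1 of zero. The median absolute difference was 0.053, against 0.11 over all tested probes.

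The intervals show what size of change these arrays could have missed. For 34 of the 42 probes the 95% confidence interval of the difference lay inside -0.5 to 0.5, a factor of 1.41 either way, and for all 42 it lay inside -1 to 1. Members also varied little between mice of a group: the median within-group SD was 0.087, against 0.19 over all tested probes. An SD under 0.1 was met by 22 members, and the SDs ran from 0.026 to 0.52. Most members were bright. Neither these SDs nor the absolute differences above were compared with those of probes of like signal.

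**Figure D1:**
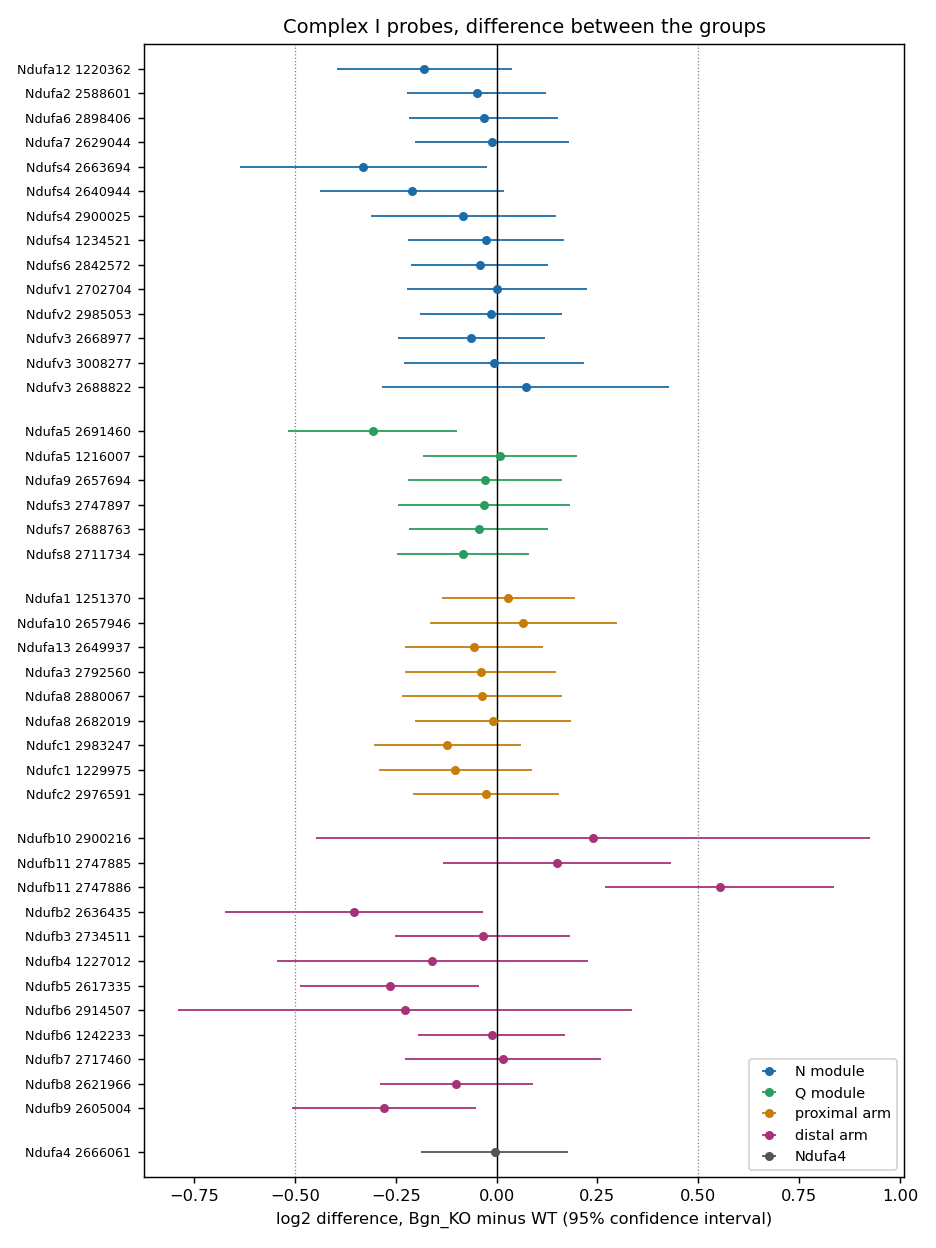
The plot gives the log2 difference Bgn_KO minus WT of each of the 42 complex I probes (point) with its 95% confidence interval from limma (bar), by role in the complex, and dotted lines at -0.5 and 0.5. All intervals lie inside -1 to 1, most points lie slightly left of zero, and Ndufb11 ILMN_2747886 lies furthest right at 0.55.

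The small differences leaned one way. Of the 42 probes 33 were lower in Bgn_KO, where 47.2% of all tested probes were lower. Taking for each gene its brightest probe, 25 of 32 genes were lower and the median difference was -0.03, against 0.01 over all tested probes. The mean deviation of the 32 genes from their average was -0.072, -0.0019, -0.0083 and -0.016 on Bgn_KO replicates 1 to 4, and 0.0052, 0.033, 0.0092 and 0.050 on WT replicates 1 to 4. The groups did not overlap, with Bgn_KO replicate 2 and WT replicate 1 nearest to each other. Array means also did not overlap for the assembly factors, complex IV, ATP synthase and the astrocyte and oligodendrocyte markers given below. They did overlap for complexes II and III, the regulators and the microglial, neuronal, hypothalamic, endothelial and ependymal markers. The assembly factor mean includes Tmem126b (-1.26) and the complex IV mean includes Cox6a2 (-2.06), the largest differences of those lists. Means without these genes were not computed. For complex I, Bgn_KO replicate 1 lay furthest from zero and was the lowest of the 8 arrays for 14 members. The pituitary genes were high on that array and on WT replicate 2, where complex I lay at 0.033. WT replicate 4, the array with muscle transcripts, was the highest for 9 members and the lowest for 1. Without WT replicate 4 the median was -0.02. With each array scaled to its median in place of quantile normalization it was -0.09, with 29 of 32 genes lower. That scaling also moved the median of all tested probes, from 0.01 to -0.05. Without Bgn_KO replicate 4, 19 of 32 genes were lower. The part of the muscle transcripts in the lean was not tested beyond leaving that array out. The lean was also not compared with that of probes of like signal.

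**Figure D2:**
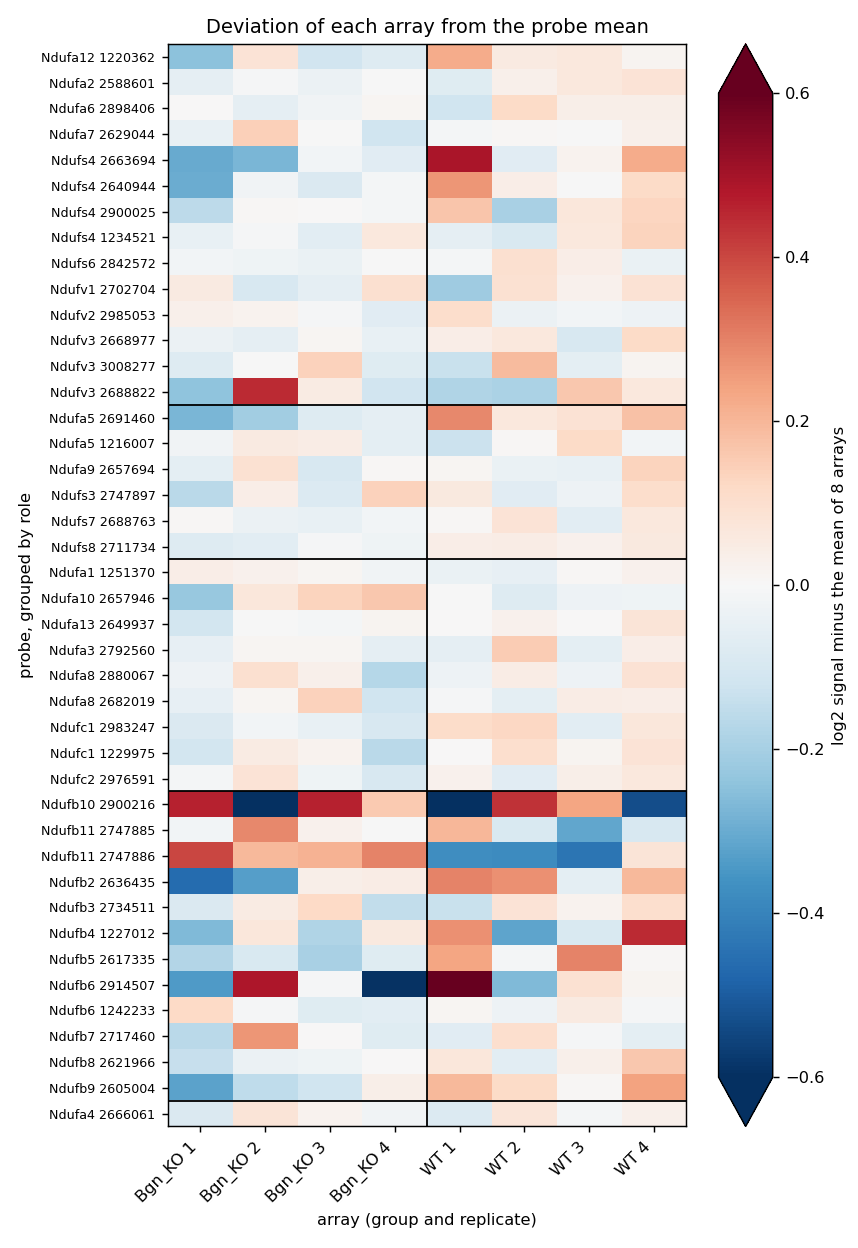
The map gives, for each of the 42 probes (rows, grouped by role) and each array (columns, Bgn_KO left and WT right of the line), the normalized log2 signal minus the probe's mean over the 8 arrays, with the colour scale ending at -0.6 and 0.6. Most rows are pale, and Ndufb10 is low on Bgn_KO replicate 2, WT replicate 1 and WT replicate 4.

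In the N module 14 probes of 9 genes were measured, and 8 genes were lower and 1 higher (median -0.03). Ndufv1, which binds NADH and the flavin that takes its electrons, had a normalized log2 signal of 13.42, 13.27, 13.31 and 13.46 on the Bgn_KO arrays and 13.15, 13.46, 13.39 and 13.45 on the WT arrays. The groups overlapped fully, with a difference of 0.0012 (SE 0.099, limma adjusted p = 0.998). Its partner Ndufv2, which carries an iron-sulphur cluster, stood at 13.54 ± 0.04 in Bgn_KO and 13.55 ± 0.07 in WT (SD, n = 4 each). The accessory subunits Ndufa12 (-0.18, SE 0.10) and Ndufv3 (-0.06, SE 0.08) had the smallest unadjusted p of the module among stand-in probes, the brightest of each gene, with limma adjusted p of 0.577 and 0.844. The core subunit Ndufs1 was not measured: its 1 probe was detected on 0 arrays.

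Ndufs4, an accessory subunit whose loss gives mice a fatal encephalopathy resembling Leigh syndrome, had 4 probes. All 4 were lower in Bgn_KO, with differences of -0.03, -0.08, -0.21 and -0.33. For ILMN_2640944 the signal was 11.78, 12.06, 11.99 and 12.07 in Bgn_KO and 12.35, 12.12, 12.08 and 12.19 in WT. The groups did not overlap, though Bgn_KO replicate 4 and WT replicate 3 nearly met, and the probe did not pass (SE 0.10, limma adjusted p = 0.527). ILMN_2663694, named after its values were seen, had the largest difference of the 4 (SE 0.14, limma adjusted p = 0.456). The brightest probe, ILMN_1234521, was at 12.69 ± 0.06 in Bgn_KO and 12.72 ± 0.10 in WT (SD, n = 4 each).

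In the Q module 5 genes were measured, 4 lower and 1 higher (median -0.03). Its core subunits Ndufs3, Ndufs7 and Ndufs8, of which the last 2 carry the clusters that lead to ubiquinone, differed by -0.03 (SE 0.09), -0.04 (SE 0.08) and -0.08 (SE 0.07). Ndufs8 was 12.69, 12.71, 12.76 and 12.75 in Bgn_KO and 12.81, 12.81, 12.79 and 12.83 in WT. Its groups did not overlap (exact permutation p = 0.0286, the smallest that 4 against 4 arrays can give), while across all probes it did not pass (limma adjusted p = 0.744). No array lay far from its group.

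Ndufa5, an accessory subunit of the Q module, was read differently by its 2 probes. The brighter, ILMN_1216007, was 13.58, 13.65, 13.64 and 13.54 in Bgn_KO and 13.47, 13.60, 13.71 and 13.58 in WT, a difference of 0.0093 (SE 0.085). The dimmer, ILMN_2691460, was 9.05, 9.12, 9.25 and 9.27 in Bgn_KO and 9.61, 9.39, 9.41 and 9.50 in WT, a difference of -0.31 (SE 0.093, exact permutation p = 0.0286, limma adjusted p = 0.275). Every WT array lay above every Bgn_KO array for the dimmer probe only. The 95% confidence interval of the dimmer probe was -0.52 to -0.10, and the difference between the probes was not tested.

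In the proximal membrane arm 7 genes were measured, 5 lower and 2 higher (median -0.04), with none past an unadjusted p of 0.05. Ndufc1 had 2 probes that gave -0.10 (SE 0.08) and -0.12 (SE 0.08). Ndufa13, also known as the cell death regulator GRIM-19, differed by -0.06 (SE 0.08, limma adjusted p = 0.854). The X-linked Ndufa1, named after its values were seen, held the narrowest band of all members, 13.45 to 13.54 over the 8 arrays. Ndufa4, now counted as a subunit of complex IV although its name places it here, was 14.26 ± 0.07 in Bgn_KO and 14.27 ± 0.06 in WT (SD, n = 4 each).

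The distal membrane arm held the widest differences: of 10 genes 7 were lower and 3 higher (median -0.07). Of its 12 probes 4 had an unadjusted p under 0.05, beside 10.2% of all tested probes. Most of its stand-in probes were dimmer than those of the N module, Q module and proximal arm. Their median SE was 0.104, against 0.082, 0.085 and 0.083 in that order. The part of probe signal in the wider differences was not tested. Ndufb5 was 10.70, 10.78, 10.68 and 10.80 in Bgn_KO and 11.11, 10.86, 11.17 and 10.88 in WT, a difference of -0.27 (SE 0.10, exact permutation p = 0.0286, limma adjusted p = 0.404). The groups did not overlap, and WT replicates 1 and 3 were the furthest from Bgn_KO. Ndufb9 was 10.08, 10.24, 10.28 and 10.43 in Bgn_KO and 10.59, 10.51, 10.41 and 10.64 in WT (difference -0.28, SE 0.10, limma adjusted p = 0.389), with Bgn_KO replicate 4 just inside the WT range. Ndufb2, named after its values were seen, had the largest negative difference of all members (-0.35, SE 0.14, limma adjusted p = 0.445). It was low on Bgn_KO replicates 1 and 2 (8.69 and 8.82), while replicates 3 and 4 (9.18 and 9.19) lay inside the WT range of 9.09 to 9.44.

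Ndufb11, an X-linked accessory subunit of the distal arm, had the largest positive difference. Its probe ILMN_2747886 was 6.22, 6.02, 6.03 and 6.12 in Bgn_KO and 5.45, 5.45, 5.39 and 5.90 in WT. All Bgn_KO arrays lay above all WT arrays, and WT replicate 4 lay nearest to them. The difference was 0.55 (95% confidence interval 0.27 to 0.84, exact permutation p = 0.0286) and did not pass over all probes (limma adjusted p = 0.139). Without WT replicate 4 it was 0.67 and passed (limma adjusted p = 0.0319), and without both replicates 4 it was 0.66 and did not (0.0719). The probe was dim, and its deposited signals overlapped between the groups (190.51 to 232.78 in Bgn_KO, 187 to 214.33 in WT). Its detection p-values were 0.00125 to 0.00376 in Bgn_KO and up to 0.0389 in WT. The size depended on the background correction: without one it was 0.15 (limma adjusted p = 0.377). With values as processed by the authors it was 0.14 (limma adjusted p = 0.395). The second and brighter probe, ILMN_2747885, was 7.14, 7.44, 7.18 and 7.15 in Bgn_KO and 7.35, 7.06, 6.84 and 7.06 in WT, overlapping groups with a difference of 0.15 (SE 0.13, limma adjusted p = 0.732).

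Ndufb10, named after its values were seen, varied most between arrays among the probes that stand for a gene. It was 10.70, 9.63, 10.70 and 10.40 in Bgn_KO and 9.63, 10.67, 10.47 and 9.71 in WT. It was low on arrays of both groups, Bgn_KO replicate 2 and WT replicates 1 and 4, and high on the other 5. The group means differed by 0.24 with a wide interval (-0.45 to 0.92, limma adjusted p = 0.844). Its size rested on single arrays: leaving out the array labelled WT replicate 1 gave 0.072, and it was 0.10 without WT replicate 4, 0.12 without Bgn_KO replicate 1 and 0.12 without Bgn_KO replicate 3. It was 0.36 without WT replicate 3, 0.42 without WT replicate 2 and 0.48 without Bgn_KO replicate 2. A second, dimmer probe of Ndufb6, ILMN_2914507, spread from 8.64 to 9.84, while the brightest Ndufb6 probe stayed between 13.42 and 13.62. Ndufb4 (difference -0.16, SE 0.17), also named after its values were seen, has close copies in the mouse genome, Ndufb4b and Ndufb4c, that its probe may not tell apart. The acyl carrier protein Ndufab1 was detected on 1 array only and was not a member.

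**Figure D3:**
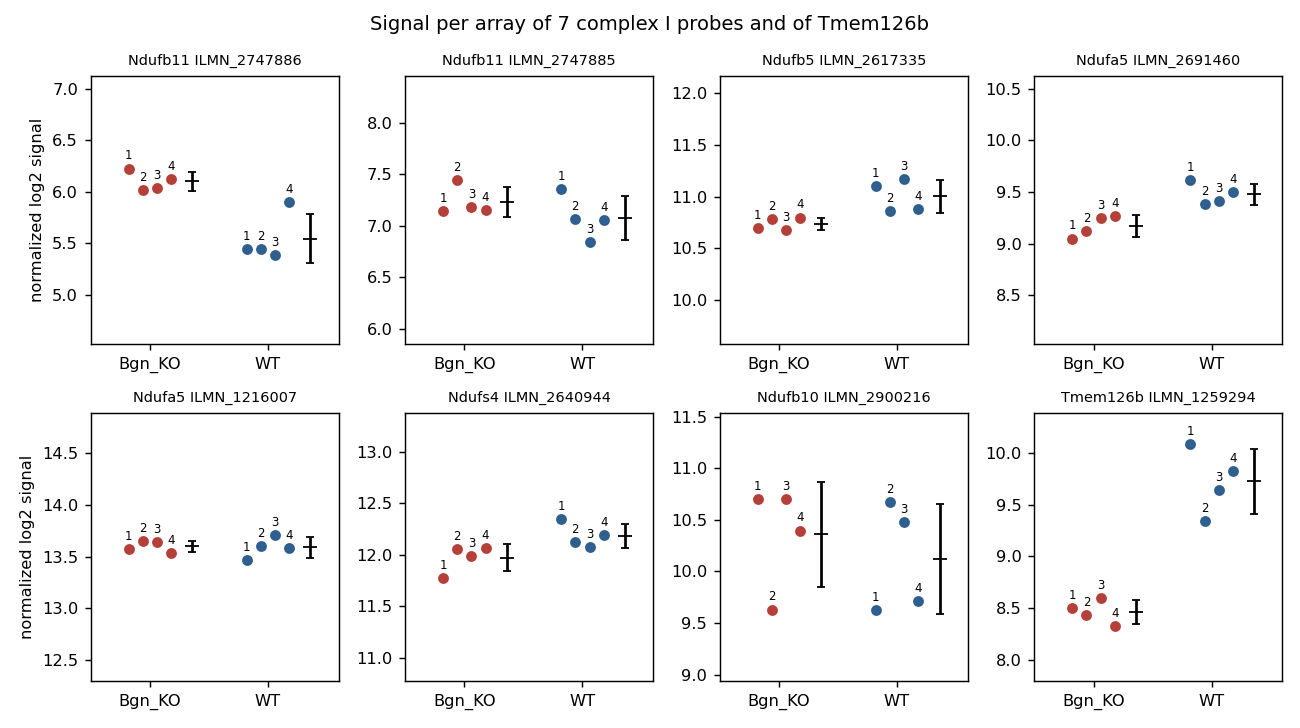
Each panel gives the normalized log2 signal of 1 probe on the 4 Bgn_KO and 4 WT arrays (points, numbered by replicate) with the group mean and SD (black), on axes of equal height. The groups separate for Ndufb11 ILMN_2747886, Ndufb5, Ndufa5 ILMN_2691460, Ndufs4 and most widely for the assembly factor Tmem126b, overlap for Ndufb11 ILMN_2747885 and Ndufa5 ILMN_1216007, and split within both groups for Ndufb10.

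Altogether 5 members had groups that did not overlap, 1 higher and 4 lower in Bgn_KO: the named probes of Ndufb11, Ndufb5, Ndufs4, Ndufa5 and Ndufs8. Over all tested probes 6.15% did so, 3.2% higher and 2.95% lower. With median scaling the count was 12, where 6.8% of all tested probes did so. Leaving out 1 array raises the count over all probes too. Without the array labelled WT replicate 1 it was 8 members (11.8% of all probes), without WT replicate 2 it was 8 (11.5%) and without WT replicate 3 it was 9 (8.84%). Of the 7 genes with several measured probes, Ndufb11, Ndufa5 and Ndufs4 had probes that differed from each other by over 0.3, and none by over 0.5.

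Genes that build complex I were also read. Of 22 assembly factors listed, 17 were measured, 10 higher and 7 lower by their brightest probe (median 0.02). Of these 1 passed, beside 0.507% of all tested probes. Over all 26 of their probes 12 were higher and 14 lower (median -0.018). Of the 26, 7 had an unadjusted p under 0.05, all of them lower, beside 4.94% of all tested probes lower at that threshold. Tmem126b, a membrane protein of the intermediate complex on which part of the membrane arm is put together, fell: it was 8.50, 8.43, 8.59 and 8.32 in Bgn_KO and 10.09, 9.35, 9.64 and 9.82 in WT. The groups were 8.46 ± 0.11 and 9.73 ± 0.31 (SD, n = 4 each), a difference of -1.26 (SE 0.15, 2.40-fold lower, limma adjusted p = 0.00654). The highest Bgn_KO value, 8.59, lay well below the lowest WT value, 9.35. The call held when any 1 array was left out (limma adjusted p between 0.00332 and 0.0308) and was lost without both replicates 4 (-1.18, 0.0719) and with the array labelled WT replicate 1 also left out (-0.99, 0.0739). With values as processed by the authors the difference was -0.99 (limma adjusted p = 0.00343). Tmem126b had 1 probe on the array, so no second one bears on it. Its paralog on chromosome 7, Tmem126a, also an assembly factor and named after its values were seen, was 11.06 ± 0.08 in Bgn_KO and 11.18 ± 0.11 in WT (difference -0.12, SE 0.09, limma adjusted p = 0.685). The other assembly factors with an unadjusted p under 0.05 among stand-in probes were Ndufaf3 (-0.30, limma adjusted p = 0.449) and Aifm1 (-0.25, 0.431), both named after their values were seen.

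In the other respiratory complexes more genes were lower than higher in Bgn_KO, beside 47.2% of all tested probes lower, without a call. Complex III subunits were lower for 7 of 8 genes (median -0.08), complex IV for 15 of 16 (median -0.09), ATP synthase for 11 of 15 (median -0.04) and complex II for 2 of 3 (median -0.08), and 0 of these stand-in probes passed. Counts at an unadjusted p under 0.05 were 0, 1, 2 and 1 in that order, beside 10.2% of all tested probes. Atp5e, a small subunit of the ATP synthase stalk, came nearest: 7.69, 7.44, 7.76 and 8.02 in Bgn_KO against 8.34, 8.28, 8.34 and 8.63 in WT (difference -0.67, SE 0.14, limma adjusted p = 0.0970). Sdhd, a membrane anchor of complex II, differed by -0.35 (SE 0.11, limma adjusted p = 0.301) and Cyc1, cytochrome c1 of complex III, by -0.18 (SE 0.08, limma adjusted p = 0.494).

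Cox6a2, the complex IV isoform of heart and skeletal muscle, was 8.91, 8.04, 7.83 and 7.89 in Bgn_KO and 9.70, 9.33, 9.70 and 12.17 in WT. The highest value was on WT replicate 4, the array with muscle transcripts. The difference was -2.06 (SE 0.57, limma adjusted p = 0.229). Without WT replicate 4 it was -1.405 (limma adjusted p = 0.108). Whether other complexes shifted more or less than complex I was not tested.

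Among regulators of mitochondrial gene expression, of 11 measured genes 9 were higher in Bgn_KO and 2 lower (median 0.06), and 0 passed, with 3 at an unadjusted p under 0.05, all higher, beside 5.21% of all tested probes. Ppargc1b, a coactivator that raises expression of respiratory genes, was 9.18, 9.49, 9.45 and 9.56 in Bgn_KO and 9.15, 9.06, 8.87 and 8.82 in WT. The groups were separated by a narrow gap between Bgn_KO replicate 1 and the array labelled WT replicate 1 (difference 0.45, SE 0.12, limma adjusted p = 0.203). Its relative Ppargc1a, named after its values were seen, differed by 0.38 (SE 0.15, limma adjusted p = 0.429) and Nrf1, likewise named, which encodes the factor of the NRF1 motif, by 0.10 (SE 0.11, limma adjusted p = 0.828). In whole tissue, fewer cells of a type and less RNA per cell cannot be told apart. Beside these values, 9 of 10 measured oligodendrocyte markers were lower in Bgn_KO (array means -0.32 to -0.08, against -0.05 to 0.31 in WT), and 6 of 10 neuronal markers were higher (-0.10 to 0.19, against -0.06 to -0.0034). Of astrocyte markers 7 of 11 were lower (-0.06 to -0.0083, against 0.01 to 0.07), and of microglial markers 10 of 11 (-0.31 to 0.08, against 0.06 to 0.22). Hypothalamic markers, mostly neuronal peptides, were lower for 10 of 11 genes (-0.32 to 0.13, against -0.03 to 0.14). Endothelial markers were lower for 4 of 5 genes and ependymal and choroid plexus markers for 5 of 6. Cortical and hippocampal neuron genes were higher for 5 of 6. The part of cell make-up in the values of complex I was not tested.

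**Figure D4:**
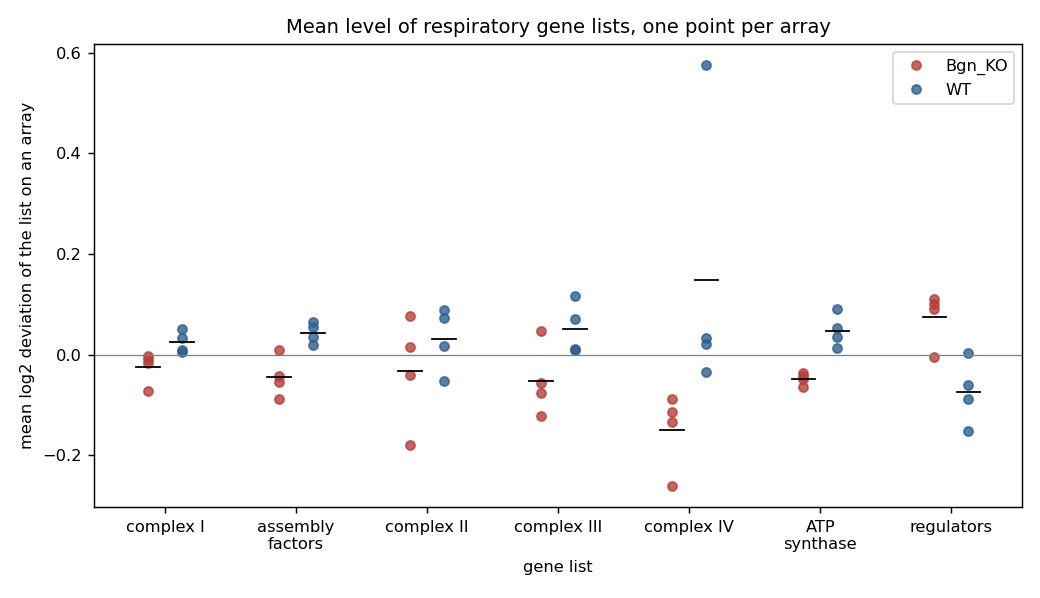
Each point is 1 array (Bgn_KO red, WT blue) and gives the mean, over the measured genes of a list, of the log2 signal minus the gene's average over the 8 arrays, with black bars at the group means. Complex I spans -0.07 to 0.05. For complex I, assembly factors, complex IV and ATP synthase every Bgn_KO array lies below every WT array. The assembly factor points include Tmem126b and the complex IV points include Cox6a2, the largest differences of those lists. The WT point at 0.58 for complex IV is replicate 4, and for the regulators Bgn_KO replicate 1 lies just below WT replicate 2.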

How the data were processed

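The signal table deposited by the authors holds raw intensities per its header, each with a deposited detection p-value. A second deposited table of intensities served as an alternative; the submitters' processing notes name lumi 2.10.0 and R 2.15.0.

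The raw intensities were corrected in limma 3.58.1 (R 4.3.3) by normexp, which drew the background from the detection p-values (offset 16), then quantile normalized and logged to base 2. One linear model with moderated variances covered all 14190 probes that met the detection rule, and Benjamini-Hochberg adjustment ran over all of them. Tests were two-sided, and exact permutation p-values enumerated every split into 4 and 4 arrays. Symbols came from the platform table (1719 probes had none), promoters from RefSeq GRCm38.p6 (searched in Python 3.11.15). The fit was tested on simulated data. Alternatives changed scaling, background, filter, weights, block and arrays.

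Members and lists were chosen with earlier results of these data known. Named were members past 0.05 or with groups that do not overlap, the 2 genes of smallest p in each role, core subunits, genes whose probes differ by over 0.5, and per pathway list the called genes and that of smallest p. Further probes of a named gene, and genes so marked, were named after their values were seen.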

Additional observations from a re-analysis of the deposited data

Results flagged for a closer look

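In 4 groups of 4 arrays a single complex I value lay far from the other 3, measured by its gap to the nearest of them over the range of the group. With 86 such groups tested, chance gives about 1 in 20, or 4.3, so the number is what chance would give. Ndufb11 ILMN_2747886 was 5.90 on WT replicate 4, against 5.39 to 5.45 on the other WT arrays. Ndufb11 ILMN_2747885 was 7.44 on Bgn_KO replicate 2, against 7.14 to 7.18. Ndufs4 ILMN_2900025 was 11.70 on Bgn_KO replicate 1, against 11.85 to 11.87. Ndufv2 ILMN_2985053 was 13.65 on the array labelled WT replicate 1, against 13.51 to 13.53.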

How the results depend on the processing

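The number of complex I probes called stayed at 0 under all alternatives except without WT replicate 4, where Ndufb11 ILMN_2747886 passed (0 to 1 over the arrays left out, smallest limma adjusted p 0.0319). Groups that do not overlap numbered 12 with median scaling (6.8% of all probes), 9 without both replicates 4 (14%), 13 without both replicates 4 and the array labelled WT replicate 1 (27.7%, chosen after seeing the data), and 5 to 9 with 1 array left out (8.13% to 11.8%). The median difference of complex I genes stayed below zero, at -0.02 to -0.06 with 1 array left out and -0.095 with median scaling, where the median of all probes was -0.05. Median scaling also gave -0.10 for ATP synthase, -0.062 for assembly factors, -0.094 for core subunits and -0.15 for complex III. ATP synthase was at -0.066 with array weights, -0.0092 without both replicates 4 and -0.063 to -0.013 with 1 array left out. Assembly factors were at 0.089 without both replicates 4 and -0.012 to 0.060 with 1 array left out, and the regulators at 0.044 to 0.16. With the replicate number as a block, 0 members passed (smallest limma adjusted p 0.253), 26 of all probes passed in place of 72, and Tmem126b missed the threshold (-1.26, limma adjusted p = 0.0526). The deviations of same-numbered arrays correlated by -0.19 to 0.10, and 1 of 4 correlated best with its own number, so the numbers were not taken to pair the samples. Tmem126b was also lost without both replicates 4 and the array labelled WT replicate 1 (-0.99, limma adjusted p = 0.0739). Atp5e passed with array weights (-0.72, limma adjusted p = 0.0441) and without Bgn_KO replicate 4 (-0.77, 0.0459).

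Some members changed sign without passing, most of them near zero, but not Ndufb10 and Ndufb6 ILMN_2914507. With median scaling, in the values as processed by the authors and with array weights, Ndufv1 was at -0.060, -0.0063 and -0.040 and Ndufa5 ILMN_1216007 at -0.058, -0.015 and -0.015. Ndufa4 was at 0.00075 and Ndufv2 at 0.0086 with array weights, and Ndufa4 at 0.010 without both replicates 4. Without both replicates 4 and the array labelled WT replicate 1, Ndufv1 was at -0.091, Ndufv2 at 0.040, Ndufa5 ILMN_1216007 at -0.036, Ndufb10 at -0.23, Ndufb6 ILMN_2914507 at 0.14 and Ndufs4 ILMN_2900025 at 0.012. With 1 array left out, Ndufa4 ran from -0.033 to 0.025, Ndufa5 ILMN_1216007 from -0.032 to 0.050, Ndufs3 from -0.084 to 0.016, Ndufs4 ILMN_1234521 from -0.060 to 0.015, Ndufv1 from -0.068 to 0.033 and Ndufv2 from -0.028 to 0.021. The cause was not tested. A slide block was not run, since no slide is given in the sources used here. Signal over background limits the dim probes, whose differences depend most on the background correction.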

Other observations

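The probe annotated to Ndufs5-ps, a transcribed pseudogene of the proximal arm subunit Ndufs5 that the selection does not cover, was detected on all 8 arrays. Its normalized log2 signal was 12.67 ± 0.15 in Bgn_KO and 12.80 ± 0.14 in WT (SD, n = 4 each), a difference of -0.13 (SE 0.11, limma adjusted p = 0.728). Whether the probe reads Ndufs5 itself was not tested.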
